A study of Mus musculus with 4 samples.

Results

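The 8 genes described here encode proteins that carry or tune the signal of the T cell receptor: Cd247, Ptprc, Zap70, Sla2, Cd2, Lck, Lat and Coro1a. They were chosen by name, with earlier results of these data known, and each was taken as its annotated gene with 1000 bp on each side. In the deposited table of 100 bp windows these 8 loci held 305 of 1048575 listed windows, and they are 8 of the 9572 protein-coding genes in the range of the table. DNA methylation had been measured by MeDIP-seq: an anti-5-methylcytosine antibody enriches methylated fragments of sonicated DNA, and DNA taken without that step (input) is sequenced for comparison.

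The cells were natural killer T (NKT) thymocytes, sorted by binding of a CD1 tetramer from C57BL/6 mice. The 4 libraries were PLZFon MeDIP, WT MeDIP, PLZFon input and WT input, 1 each, from mice named PLZFon and from wild-type (WT) mice. What the PLZFon allele is, the age of the mice and their number are not given in the labels. PLZF is a transcription factor required for the NKT lineage, and the title of the series concerns its acetylation. The antibody label disagrees with the titles for 2 libraries, naming none for PLZFon MeDIP and one for WT input. Groups follow the titles. There are no replicates, so no test of genotype was possible, and a difference is one between libraries. All intervals are exact (Clopper-Pearson) 95% intervals that cover counting error only. A lower signal in every cell and a loss in part of the cells cannot be told apart in such sorted pools, and the purity of the sorts is not measured by these reads.

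The T cell receptor signals through chains that carry no enzyme of their own. On NKT cells the receptor recognises lipids on CD1d. Lck, a Src family kinase, phosphorylates the zeta chain encoded by Cd247, the kinase Zap70 docks there, and Zap70 in turn phosphorylates the adaptor Lat, which gathers the enzymes of the calcium and Ras branches. Ptprc encodes CD45, the phosphatase that removes the inhibitory phosphate from Lck. Promoters of genes in use are commonly free of CpG methylation, while gene bodies are commonly methylated.

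The libraries held 10635946 reads (PLZFon MeDIP), 15143451 (WT MeDIP), 50365402 (PLZFon input) and 60689327 (WT input). A listed window held at least 10 MeDIP reads over both genotypes and at least 1 CpG. Over all listed windows the depth-scaled ratio of PLZFon over WT was 0.964 for MeDIP and 1.01 for the inputs. MeDIP reads were 4.22 times the input in PLZFon and 4.44 times in WT over all listed windows. Over the 8 loci together these values were 4.18 in PLZFon and 4.51 in WT. The library titled PLZFon MeDIP thus had a value there near that over all listed windows. Windows were listed on their MeDIP reads, and that minimum itself raises MeDIP over input wherever it is given here. The disagreement of the antibody label with the titles was not tested.

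The gene starts are shown first, because few listed windows lay near them although they held CpGs. The sequences are the 250 bases before an annotated start, from RefSeq (GRCm38.p6, the same primary assembly as mm10), with each CpG in capitals. Shown are the first start of Coro1a, the first and the last start of Zap70, and both starts of Lck, which are known as its distal and proximal promoters:
Coro1a, first start, chr7:126704817-126705066, minus strand: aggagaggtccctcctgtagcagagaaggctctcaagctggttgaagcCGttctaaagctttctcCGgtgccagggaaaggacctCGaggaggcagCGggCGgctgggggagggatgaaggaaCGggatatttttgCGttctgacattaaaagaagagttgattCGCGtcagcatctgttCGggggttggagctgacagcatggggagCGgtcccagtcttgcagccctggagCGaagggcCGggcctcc
Zap70, first start, chr1:36761548-36761797, plus strand: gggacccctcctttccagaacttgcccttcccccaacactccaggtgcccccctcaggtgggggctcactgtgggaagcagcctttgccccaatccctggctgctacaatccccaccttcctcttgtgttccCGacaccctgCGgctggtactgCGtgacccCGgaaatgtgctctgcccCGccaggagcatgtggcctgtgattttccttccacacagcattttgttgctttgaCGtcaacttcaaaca
Zap70, last start, chr1:36778734-36778983, plus strand: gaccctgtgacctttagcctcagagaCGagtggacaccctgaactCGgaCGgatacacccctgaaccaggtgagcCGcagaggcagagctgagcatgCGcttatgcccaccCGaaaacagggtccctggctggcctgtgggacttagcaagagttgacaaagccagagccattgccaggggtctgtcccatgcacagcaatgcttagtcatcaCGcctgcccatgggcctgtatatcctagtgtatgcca
Lck, distal start, chr4:129573642-129573891, minus strand: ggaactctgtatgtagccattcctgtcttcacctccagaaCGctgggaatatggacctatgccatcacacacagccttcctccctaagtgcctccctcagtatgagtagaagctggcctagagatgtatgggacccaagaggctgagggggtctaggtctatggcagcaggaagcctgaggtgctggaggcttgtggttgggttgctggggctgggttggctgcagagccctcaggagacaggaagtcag
Lck, proximal start, chr4:129558373-129558622, minus strand: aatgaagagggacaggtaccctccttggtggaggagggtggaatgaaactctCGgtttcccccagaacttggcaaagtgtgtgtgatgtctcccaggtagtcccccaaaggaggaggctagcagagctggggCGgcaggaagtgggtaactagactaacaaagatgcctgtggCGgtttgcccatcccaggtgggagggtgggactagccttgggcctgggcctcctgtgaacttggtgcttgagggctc

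RefSeq promoters were found for 7 of the 8 genes, with 12 starts, and none for Cd2. The 250 bases before those starts held between 1 (Lck, distal) and 13 CpGs (Coro1a, first), with a median of 4, against a median of 9 over 9786 starts of protein-coding genes. In every one of the 998 listed windows that lay within a RefSeq promoter, the deposited CpG factor equalled the number of CpGs counted in the sequence. None of the 3412 promoter windows without a CpG was listed. A window that holds a CpG and is not listed was therefore taken to have fewer than 10 MeDIP reads over both genotypes, which the table alone cannot show.

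Of 19 windows with a CpG within the promoters of the 8 genes, 1 was listed (5.26%). Over all protein-coding promoters 998 of 15250 such windows were listed (6.54%). These 2 shares are not of like windows. Of the 19 windows 2 held 6 or more CpGs, 6 held 3 to 5 and 11 held 1 or 2. Over all promoters 6908 of the 15250 held 6 or more. The first promoter of Coro1a had 6 and 7 CpGs in its 2 full windows, and the first promoter of Zap70 had 2 and 5, and none of these windows was listed. Over all protein-coding promoters, 0.84% of windows with 6 or more CpGs, 9.89% with 3 to 5 and 12.3% with 1 or 2 were listed. The listed window was at the last start of Zap70, within the gene (chr1:36778901-36779000, 2 CpGs), with 5 PLZFon and 13 WT MeDIP reads and 12 input reads in each genotype. It opened a run of 5 listed windows with 24 CpGs.

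Within 1000 bp of the 12 starts 15 of 240 windows were listed (6.25%), and 13.3% were listed from 1000 to 5000 bp away. The same shares over all protein-coding starts were 8.15% and 13.3%. No window was listed within 1000 bp of 8 of the 12 starts (66.7%), a share that was 60.6% over all starts. These 8 were both starts of Ptprc and Coro1a, the starts of Cd247 and Lat, the first start of Zap70 and the proximal start of Lck. The 2 starts of Ptprc lie 179 bp apart and those of Coro1a 596 bp apart. Each pair therefore covers many of the same windows, and the 240 windows are not all distinct. The nearest listed window lay 1381 bp away for Cd247, 1929 bp for the proximal start of Lck, 1433 bp for Lat and 1085 bp for the first start of Coro1a. The distal start of Lck had 2 listed windows, the nearest 160 bp away, with 4 PLZFon and 9 WT MeDIP reads in each.

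**Figure D1:**
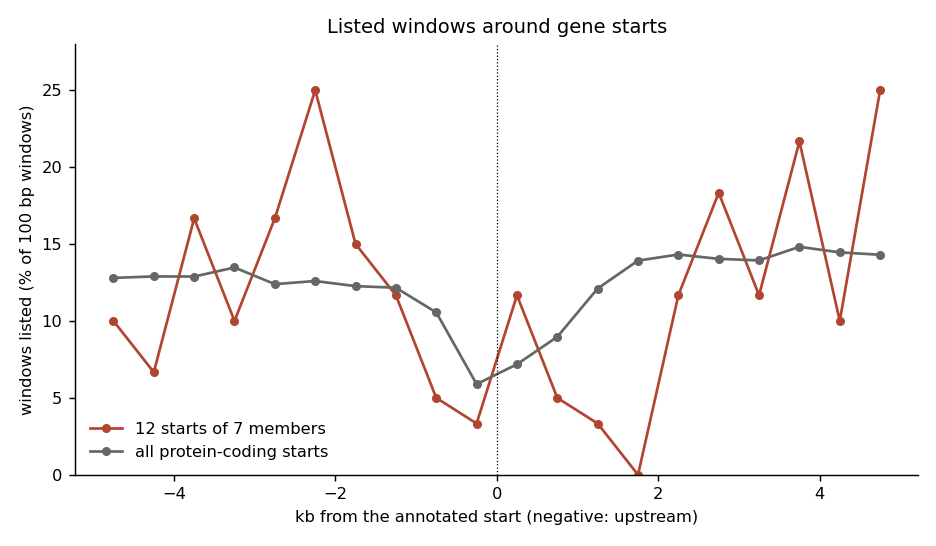
Share of 100 bp windows that are listed, in steps of 500 bp from annotated gene starts, for the 12 starts of 7 of the genes (red) and for all 9786 protein-coding starts (grey). Within 1000 bp of the start 6.25% of windows are listed for these genes and 8.15% for all. Each red point rests on 60 windows, not all distinct, because some starts of the same gene lie close together.

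Where windows near starts were listed, their enrichment over input could not be told from that of the rest of the loci. Both sets had to reach 10 MeDIP reads to be listed. The comparison therefore leaves out the many unlisted start windows and does not compare starts with bodies as a whole. Over the 21 start windows of the 8 genes, with both ends of Cd2 counted as starts, MeDIP was 3.46 times the input in PLZFon (2.27 to 5.22) and 3.58 times in WT (2.43 to 5.25). Over the 284 other windows it was 4.25 times in PLZFon (3.78 to 4.77) and 4.58 times in WT (4.15 to 5.06). These intervals overlap in both genotypes. The pooled values set different genes against each other: the start windows came from Zap70 (11), Cd2 (5), Sla2 (3) and Lck (2), and 169 of the others were in Cd247. Within Zap70 the start windows had 3.52 times the input in PLZFon (2.01 to 6.11) and 3.82 times in WT (2.33 to 6.24), and its 24 other windows 3.67 times in PLZFon (2.37 to 5.64) and 3.27 times in WT (2.31 to 4.62). The start windows of Zap70 were at its second start (6) and last start (5), and none at its first. Some of those at the second start lie in the pseudogene Gm18828, which shares 5 windows with the locus. The pooled PLZFon over WT ratio was 1.13 (0.735 to 1.72) in the start windows and 0.922 (0.827 to 1.03) in the others, and both intervals include equality.

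Signal over the genes came in patches, here runs of listed windows with gaps of at most 200 bp. There were 70 patches that touched the 8 loci, some running past the 1000 bp flank, and 25 of them had at least 20 MeDIP reads. A read counts in about 4 neighbouring windows, so reads over a locus are the window sums divided by 4. The plot of windows along the genes shows patches across Cd247, Lck and Zap70, and 3 small ones in Ptprc.

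**Figure D2:**
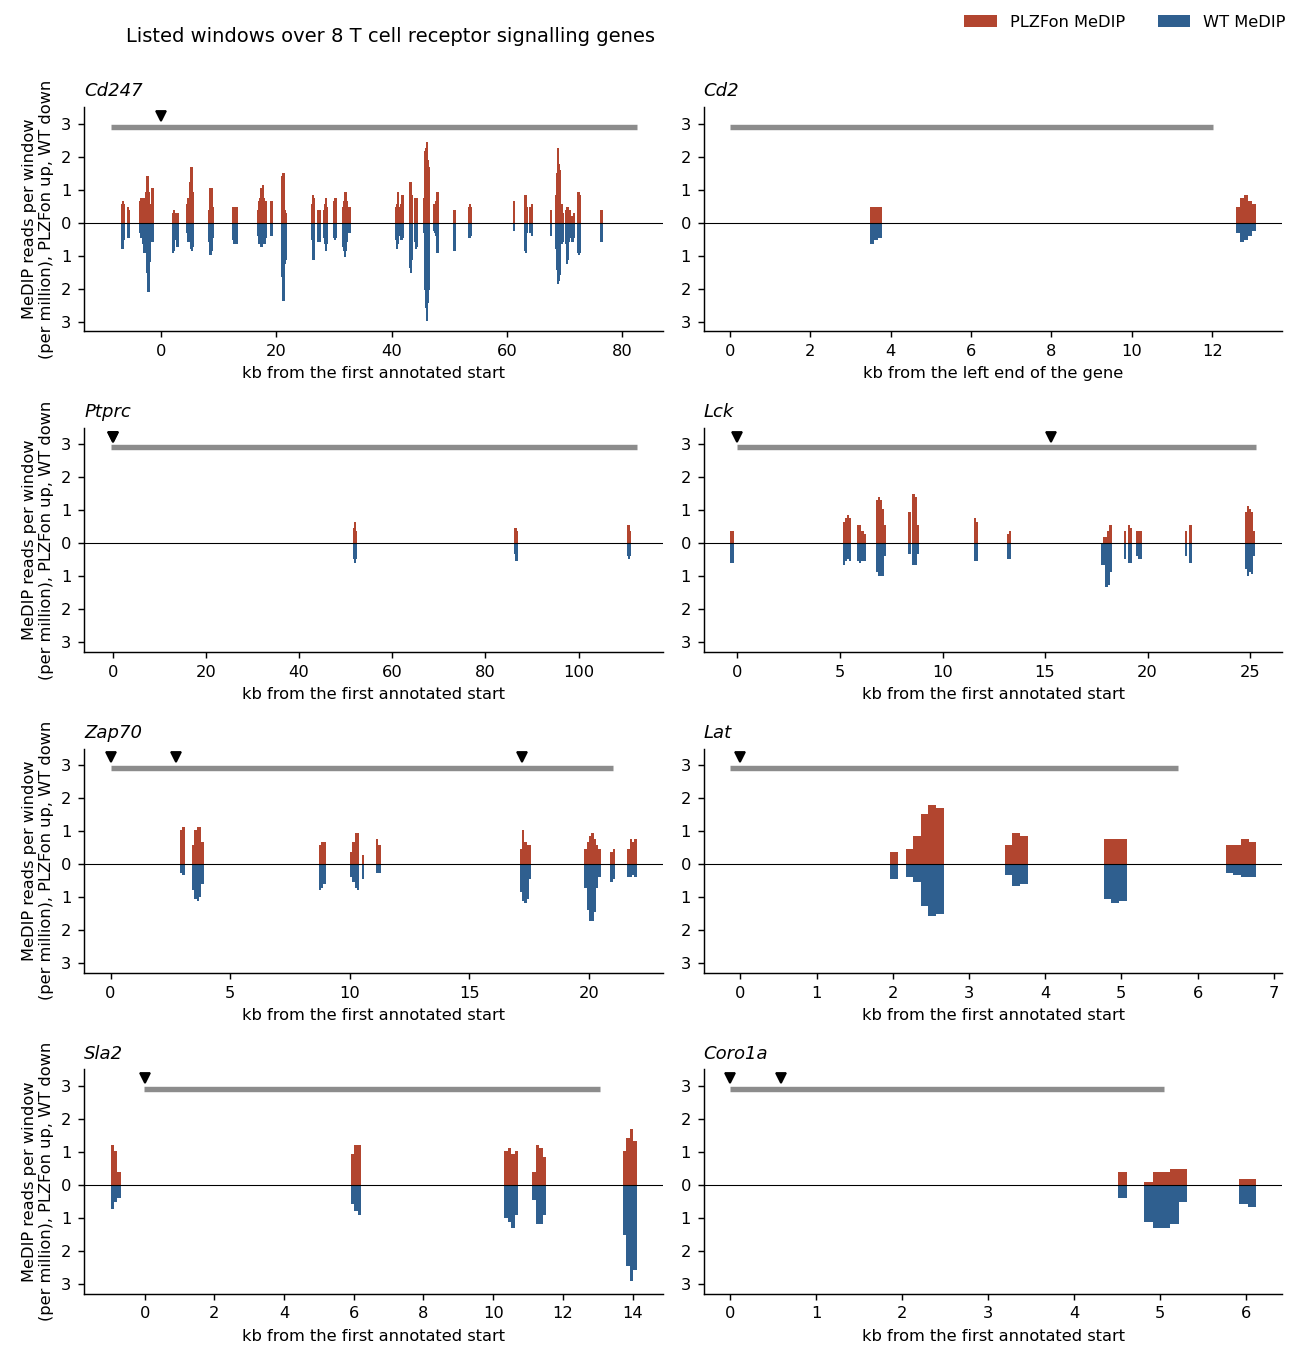
MeDIP reads per listed 100 bp window, scaled by library totals (RPM), along each gene (PLZFon upward, WT downward), against the distance in kb from the first annotated start (Cd2: from the left end of the gene). Grey bars are the annotated genes and triangles the starts; windows are listed on the sum of both genotypes, so both are drawn at the same places, and the WT bars are longer than the PLZFon bars near the end of Coro1a.

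Cd247 encodes the zeta chain, the main signalling chain of the receptor complex (chromosome 1, 165779952 to 165871153, plus strand). The annotated gene begins at -8729 bp relative to the RefSeq start used here. Listed windows between that end and the start were counted with the other windows, not as start windows. It held 169 listed windows with 405 CpGs, or 18.1 windows per 10 kb. The window counts summed to 1354 in PLZFon MeDIP, 2092 in WT MeDIP, 1512 in PLZFon input and 1699 in WT input. Cd247 thus had most of the data of the 8 genes. The PLZFon over WT ratio was 0.922 (0.801 to 1.06) for MeDIP and 1.07 (0.931 to 1.23) for the inputs. Both include equality.

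The highest patch of Cd247 (chr1:165834301-165835200) lay 45620 bp downstream of the start, within the lncRNA gene Gm32999, and held 27 CpGs in 9 windows. MeDIP was 13.1 times the input there in PLZFon and 13.2 times in WT, and the ratio of PLZFon over WT was 0.881 (0.586 to 1.31). Its highest window (chr1:165834701-165834800) had 26 PLZFon and 45 WT MeDIP reads, and 6 PLZFon and 12 WT input reads. That patch, with 12.8% of the reads over Cd247, stood far above input in both genotypes. Another patch (chr1:165809601-165810300), at the snRNA gene Gm23402, had window sums of 72 in PLZFon and 167 in WT MeDIP, and 74 and 70 in the PLZFon and WT inputs. Its ratio was 0.614 (0.332 to 1.09), which includes equality.

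Ptprc, the gene of CD45, was the sparsest of the 8 (chromosome 1, 138062859 to 138175756, minus strand). It held 10 listed windows with 15 CpGs over 112898 bp, or 0.87 per 10 kb. Of 939 protein-coding genes within 1.5-fold of its length, the median was 11.1 windows per 10 kb, and Ptprc stood at percentile 0.799. The longest stretch without a listed window, at its start end, was 53.3 kb. Windows without a CpG are never listed, and how far CpG content sets this density was not tested.

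The window counts of Ptprc summed to 52 in PLZFon MeDIP and 68 in WT MeDIP, and to 57 in each input. Its highest window (chr1:138123201-138123300) had 7 PLZFon and 9 WT MeDIP reads, and no other had more. The ratio was 1.09 (0.486 to 2.38), an interval so wide that a 2-fold difference in either direction was not detectable at this depth. Where windows were listed, MeDIP was 4.32 times the input in PLZFon (1.88 to 9.86) and 4.78 times in WT (2.23 to 10.4). These values stood at percentiles 64.5 and 73.5 of protein-coding loci. The medians of those loci, 3.97 in PLZFon and 4.18 in WT, lie within these wide intervals.

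**Figure D3:**
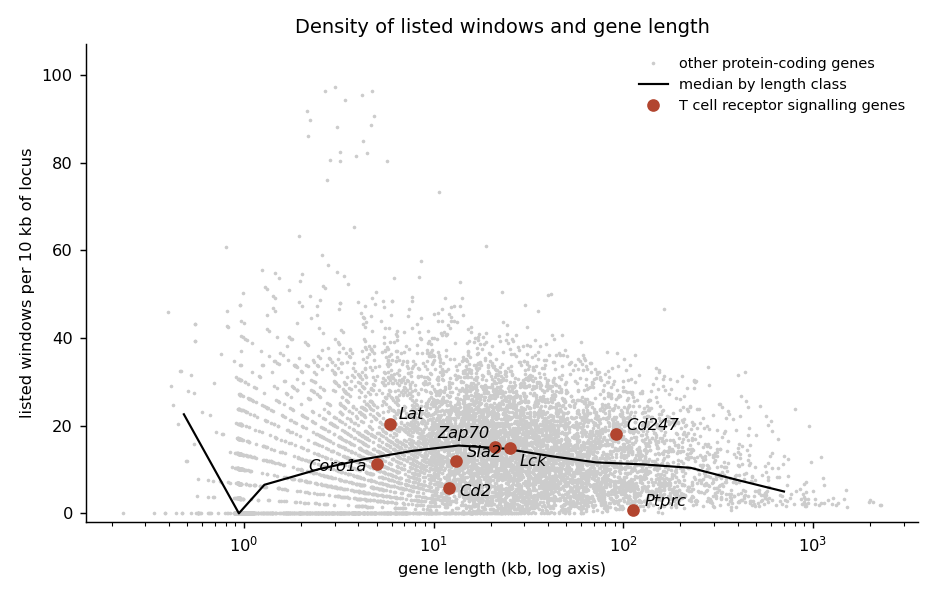
Listed windows per 10 kb of locus against gene length (log axis) for protein-coding genes, with the 8 genes in red and the median by length class as a line. Ptprc, at 0.87 per 10 kb, lies far below the line, and Cd247 and Lat lie above it at 18.1 and 20.3.

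Cd2, an adhesion receptor that adds to T cell activation, was also sparse (chromosome 3, 101275908 to 101287939; no strand given in the tables used). It held 8 listed windows, 5.7 per 10 kb, against a median of 15.2 over 1870 genes of similar length. Counts summed to 50 in PLZFon MeDIP, 57 in WT MeDIP, 70 in PLZFon input and 106 in WT input. The ratio was 1.25 (0.536 to 2.87) for MeDIP and 0.796 (0.409 to 1.51) for the inputs. Of its 26.75 MeDIP reads, 62.6% lay in a patch outside the right end of the gene (chr3:101288501-101289000). Inside the gene there were 3 listed windows, with a ratio of 0.854 (0.17 to 3.61).

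Lck (chromosome 4, 129548344 to 129573641, minus strand) held 41 listed windows in 11 patches, at 15 per 10 kb. Counts summed to 286 in PLZFon MeDIP, 400 in WT MeDIP, 372 in PLZFon input and 434 in WT input. The ratio of the whole locus was 1.02 (0.741 to 1.39) for MeDIP and 1.03 (0.774 to 1.38) for the inputs. Both include equality, while one patch within the locus did not.

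A patch of Lck (chr4:129555401-129555900), 2472 bp downstream of the proximal start, was lower in PLZFon. Its 5 windows held 19 CpGs and summed to 14 in PLZFon MeDIP and 72 in WT MeDIP, with 53 in PLZFon input and 73 in WT input. The ratio was 0.277 (0.0607 to 0.887) for MeDIP and 0.875 (0.397 to 1.88) for the inputs. MeDIP was 1.25 times the input in PLZFon and 3.95 times in WT. By window, counts were 6, 4, 2, 2 and 0 in PLZFon MeDIP and 13, 19, 20, 10 and 10 in WT MeDIP. Windows this close share reads and are 1 observation. A window low in both genotypes would not be listed. In each of the 5 windows the WT count alone reached the minimum of 10, and the PLZFon count did not. The ratio of this patch is therefore drawn from windows listed through WT, which was not corrected for.

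Other patches of Lck pointed the other way without reaching an interval above equality. The patch between the starts at chr4:129564801-129565300 holds the window of the 8 loci with most CpGs, 11, which had 15 PLZFon and 10 WT MeDIP reads and 7 PLZFon and 5 WT input reads. Its ratio was 2.23 (0.82 to 6.5) on fewer than 20 reads. The patch at chr4:129566401-129566900 had a ratio of 1.33 (0.615 to 2.88). Both include equality.

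Zap70 (chromosome 1, 36761798 to 36782821, plus strand) held 35 listed windows with 104 CpGs, at 15.2 per 10 kb. Counts summed to 261 in PLZFon MeDIP, 394 in WT MeDIP, 342 in PLZFon input and 458 in WT input. The ratio was 0.943 (0.679 to 1.3) for MeDIP and 0.9 (0.672 to 1.2) for the inputs. Its highest patch (chr1:36781601-36782300), near the end of the gene, summed to 50 in PLZFon and 123 in WT MeDIP. The ratio there was 0.579 (0.274 to 1.15), and 0.692 (0.353 to 1.31) in the inputs. Its highest window (chr1:36781901-36782000) had 10 PLZFon and 26 WT MeDIP reads. The patch at the last start had 0.702 (0.274 to 1.66). Both intervals include equality. In the other direction, a patch of 2 windows 186 bp downstream of the second start (chr1:36764701-36764900) summed to 23 in PLZFon and 9 in WT MeDIP, a ratio of 3.64 (0.674 to 31.5) on 8 reads, under the minimum of 20.

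Lat, the adaptor that Zap70 phosphorylates (chromosome 7, 126363827 to 126369705, minus strand), held 16 listed windows and the highest density of the 8, at 20.3 per 10 kb. Counts summed to 147 in PLZFon MeDIP, 183 in WT MeDIP, 133 in PLZFon input and 149 in WT input. The ratio was 1.14 (0.72 to 1.8) for MeDIP and 1.08 (0.653 to 1.76) for the inputs. Of its MeDIP reads, 47.9% lay in a patch 1968 bp downstream of the start (chr7:126366901-126367600). There MeDIP was 10.2 times the input in PLZFon and 7.26 times in WT, and the ratio was 1.16 (0.585 to 2.28). The highest window (chr7:126367001-126367100, 5 CpGs) had 19 PLZFon and 24 WT MeDIP reads, and 2 PLZFon and 8 WT input reads.

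Sla2 encodes an adaptor that dampens T cell receptor signalling (chromosome 2, 156874151 to 156887250, minus strand). It held 18 listed windows, and its counts summed to 204 in PLZFon MeDIP, 326 in WT MeDIP, 154 in PLZFon input and 200 in WT input. MeDIP over input was the highest of the 8, 6.27 in PLZFon (4.05 to 9.79) and 6.53 in WT (4.54 to 9.48), at percentiles 95.6 and 95.7 of protein-coding loci. The PLZFon over WT ratio was 0.891 (0.615 to 1.28). The patch at its end (chr2:156873001-156873500) lies in the neighbouring gene Rab5if and partly past the flank. It summed to 68 in PLZFon and 169 in WT MeDIP, and to 35 in PLZFon and 75 in WT input. Without the windows of Rab5if the ratio of Sla2 was 1.14 (0.715 to 1.79), so its side of equality rests on that patch. The MeDIP over input of Sla2 also includes 4 windows in Rab5if. Over that patch MeDIP was 9.2 times the input in PLZFon and 9.03 times in WT. The MeDIP over input of Sla2 without those windows was not computed.

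Coro1a, an actin regulator that T cells need for survival (chromosome 7, 126699774 to 126704816, minus strand), was the member lower in PLZFon over its whole locus. Its 8 listed windows summed to 27 in PLZFon MeDIP and 108 in WT MeDIP, and to 57 in PLZFon input and 122 in WT input. Each PLZFon window held 1 to 5 MeDIP reads and each WT window 6 to 20. With so few PLZFon reads, the listing minimum of 10 over both genotypes itself requires a WT count at least as high, so the lack of overlap in raw counts is no result. After scaling by library totals the highest PLZFon window stood above the lowest WT window. The ratio was 0.356 (0.128 to 0.847) for MeDIP. The same minimum bears on this ratio. Most of the windows reached it through WT alone, where the median count was 13.5, and this was not corrected for. The input ratio was 0.563 (0.278 to 1.09), at percentile 0.346 of protein-coding loci, and its part in the result was not tested. Divided by the input ratio, the MeDIP ratio was 0.632.

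The signal of Coro1a lay at the far end of the gene from its starts. The patch chr7:126699501-126700300 spans the annotated end and holds 83.0% of the reads of the locus, with 18 CpGs. It summed to 23 in PLZFon and 89 in WT MeDIP, and to 51 in PLZFon and 107 in WT input. Its ratio was 0.368 (0.119 to 0.947), and 0.574 (0.27 to 1.16) in the inputs. With 5000 bp on each side, the ratio of the locus was 0.635 (0.359 to 1.09), which includes equality, and without a flank the locus had fewer than 20 reads, with a ratio of 0.294 (0.0594 to 0.994).

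**Figure D4:**
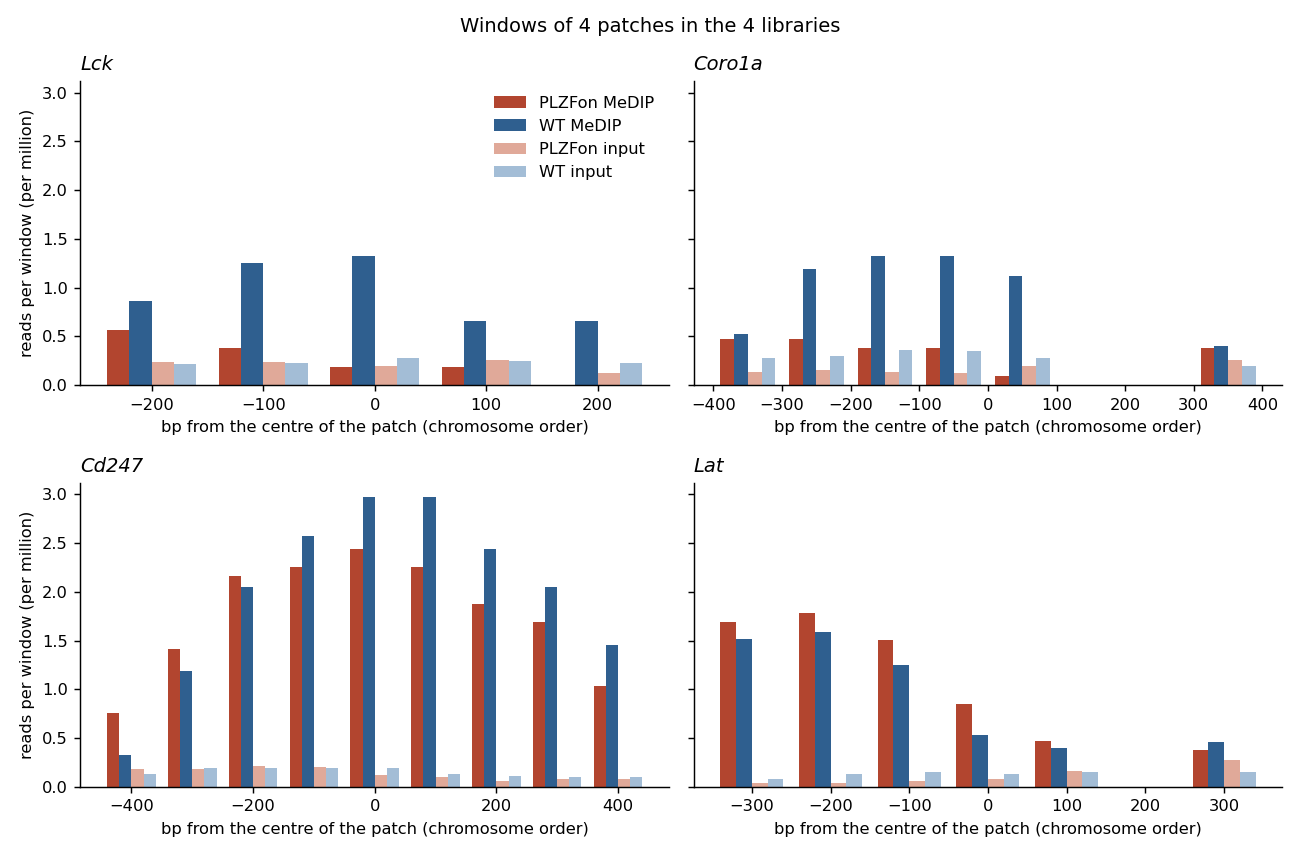
Reads per 100 bp window, scaled by library totals (RPM), in the 4 libraries over a patch of Lck, Coro1a, Cd247 and Lat, against the distance in bp from the patch centre. PLZFon MeDIP sums to less than WT MeDIP over the Lck and Coro1a patches (ratios of 0.277 and 0.368), while both stand well above the inputs in Cd247 and, over most of its windows, in Lat.

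Set side by side, 1 of the 8 genes, Coro1a, had a MeDIP interval that excluded equality, on the lower side. Among the 7668 protein-coding loci that reached 20 reads, 5.01% had such an interval on the lower side and 6.25% in either direction. Coro1a was also the gene past a rule of size, which asks for 20 or more reads, a 2-fold or greater ratio and an interval that leaves out equality. On the lower side 0.352% of loci passed it. Most windows of Coro1a had reached the listing minimum through WT alone. None of the 8 input ratios excluded equality, against 3.33% of all loci. The median log2 ratio of the 8 genes was -0.03, beside -0.06 over all 7668 loci, with 4 genes on each side of equality. The narrowest interval was that of Cd247.

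**Figure D5:**
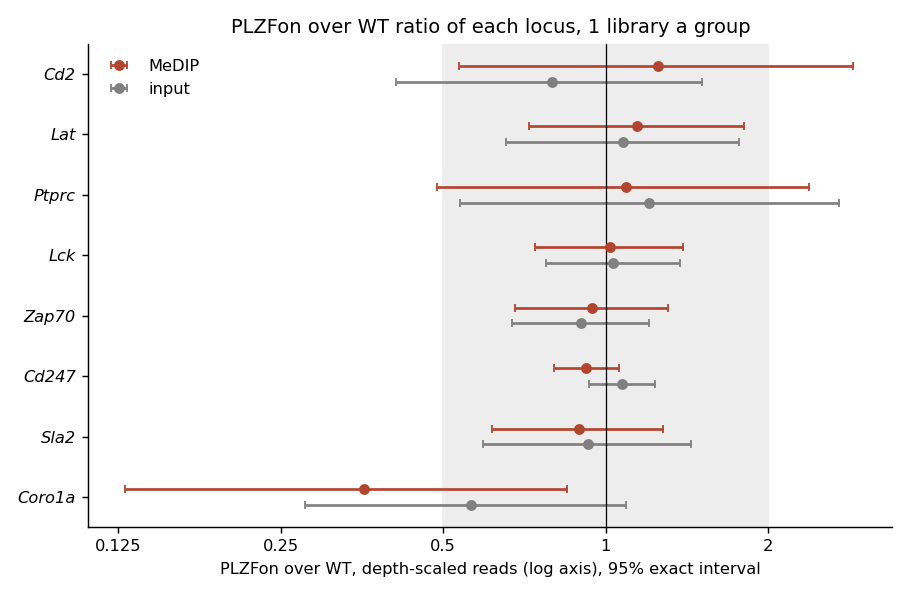
PLZFon over WT ratio of depth-scaled reads for each locus (log axis), MeDIP in red and input in grey, with exact 95% intervals for counting error; the shaded band spans 2-fold either way. The MeDIP interval lies below 1 for Coro1a, where the input ratio is also the lowest, and includes 1 for the other genes.

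Of the 25 patches with at least 20 reads, those of Lck and Coro1a had an interval excluding equality, and both passed the rule of size. Of the 80450 such patches over the whole range, 3.16% had an excluding interval and 1.94% passed the rule, counting either direction. Of 115 windows with at least 20 reads, 8 passed the rule of size, all lower in PLZFon. Over all such windows 3.3% passed it in either direction. For patches and windows the share on the lower side alone was not computed. Among all protein-coding loci, intervals excluding equality lay on the lower side for 384 and on the higher side for 95. The 8 windows were 4 of Cd247, 2 of Lck and 2 of Coro1a, in 4 patches. In each of them the WT count alone reached the listing minimum of 10. In Lck the window chr4:129555601-129555700 had 2 PLZFon and 20 WT MeDIP reads, with 10 PLZFon and 17 WT input reads, a ratio of 0.142 (0.0161 to 0.586). In Coro1a the windows chr7:126699701-126699800 and chr7:126699801-126699900 each had 4 PLZFon and 20 WT MeDIP reads, a ratio of 0.285 (0.0708 to 0.85). In Cd247 the lowest were chr1:165810201-165810300, with 3 PLZFon and 17 WT reads and a ratio of 0.251 (0.0472 to 0.869), and its neighbour chr1:165810101-165810200, with 4 PLZFon and 19 WT reads and a ratio of 0.3 (0.0742 to 0.902).

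The authors' deposited table, whose edgeR columns compare the same libraries without replicates, called 0 of the 305 windows at an adjusted p below 0.05, beside 0.0144% of all windows. At an unadjusted p below 0.05 the authors' deposited table had 14 of the 305 windows, beside 3.31% of all. Its smallest p-values here, each with an adjusted p of 1, were 0.00236 in Coro1a (chr7:126699901-126700000, log2 fold change of -3.40 in the authors' deposited table) and 0.00259 in Lck (chr4:129555601-129555700, -2.70).

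MeDIP over input was also read by CpG content within the 8 loci. With 1 CpG in a window it was 4.07 in PLZFon (3.28 to 5.03) and 3.88 in WT (3.23 to 4.66), and with 5 or more it was 4.53 in PLZFon (3.06 to 6.69) and 5.92 in WT (4.33 to 8.15). Over all listed windows it was 3.56 in PLZFon and 3.68 in WT with 1 CpG, and 6.02 in PLZFon and 6.59 in WT with 5 or more. The 24 CpG-rich windows of the 8 loci had a PLZFon over WT ratio of 0.752 (0.531 to 1.05), which includes equality.

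A list of 60 other genes of the pathway was read in the same way. All 60 symbols matched the gene table, 29 lay in the range and 28 of these had at least 20 reads. None passed the rule of size. Their median log2 ratio was -0.07, beside -0.06 over all loci, and 21 of the 28 lay below equality (75%), beside 62.9% of all loci. The largest differences were at Nras, a Ras GTPase, with a log2 ratio of -0.52 and a ratio of 0.697 (0.372 to 1.26), and Lax1, an adaptor that restrains lymphocyte signalling, with 0.47 and a ratio of 1.38 (0.782 to 2.45). Intervals excluded equality for 3 of the 28 (10.7%), beside 6.25% of all loci in either direction, and these 3 genes are named after their values were seen. Bcl10, a scaffold of the NF-kappaB branch, was higher in PLZFon at 1.36 (1.04 to 1.77), while Itpr1, a calcium release channel, had 0.924 (0.857 to 0.995) and Wipf1, a partner of the actin regulator WASP, had 0.88 (0.779 to 0.992). Scaling by the reads of the listed windows left 1 of these 3 intervals off equality.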

How the data were processed

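Per the submitters' processing notes, reads were processed with BWA and edgeR on mm10, with no versions, and the file headers name sorted, unique-filtered alignments. The deposited values used were raw counts per 100 bp window, RPKM, the authors' CpG factor score and the authors' log2 fold changes and p-values. The deposited relative methylation score is not reported, and 6 columns of means were not used. The table ends on chromosome 7 at 139972600.

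Library totals came from the ratio of counts to RPKM. Squared count differences between input windows, scaled by the mean, were 0.261 (PLZFon) and 0.264 (WT) at a lag of 1 window, 1.14 and 1.15 at 4, and 1.2 and 1.23 at 8, so a read was taken to count in 4 windows. This is less certain for MeDIP. Ratios are shares of library totals, in Python 3.11.15 with scipy 1.17.1. Fragments had a median of 180 to 230 bp, per the labels' protocols. Genes were those of GRCm38.p6, and strand came from its promoter table. On simulated data at the depths of 7668 loci, the rule of size recovered 96% of loci changed 3-fold and called 0.469% of unchanged ones. The simulated counts held counting error only, without the listing minimum or other differences between libraries. Those loci had a median of 179 reads, while Ptprc, Cd2 and Coro1a had 30, 26.75 and 33.75. Recovery at such depths was not computed separately.

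The named genes were the 8 members, their highest or called windows, and the pathway genes past the rule of size or with the 2 largest differences. Bcl10, Itpr1 and Wipf1, and some patches, were named outside that rule, after their values were seen. Members and lists were chosen with earlier results of these data known; patches were defined after the files were seen. Alternatives were other scalings (edgeR 4.0.16 TMM factors among them), flanks, read minimums, start widths and patch gaps.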

Additional observations from a re-analysis of the deposited data

How the results depend on the processing

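No paired analysis was possible because each group has 1 library, and no replicate could be left out. The count of 1 gene past the rule of size, and the count of 1 with an interval excluding equality, each became 0 with no flank and 0 with a flank of 5000 bp, and the first became 0 with a minimum of 50 reads, since Coro1a then had too few reads or, at 5000 bp, a ratio of 0.635 with an interval that includes equality. Under the other scalings, divisors and window choices run, Coro1a ranged from 0.356 to 0.369 with intervals below equality, and divided by the input ratio it was 0.632, with no interval computed. Intervals of the other 7 genes included equality under every alternative for which one was computed. Under other gaps and scaling, chosen after seeing the data, the Lck patch ranged from 0.277 to 0.287 and the Coro1a patch from 0.326 to 0.382, and 2 or 3 patches had intervals excluding equality. In the pathway list the 3 intervals excluding equality became 1 with scaling by the listed windows. In the authors' deposited table the 0 windows became 3 at an unadjusted p below 0.01. Depth limits most single patches: 45 of 70 had fewer than 20 reads.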
